A study of Arabidopsis thaliana with 11 samples.

Results

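Flowers of Arabidopsis thaliana were compared with expanding leaves over all genes read by the ATH1 array. The comparison used the 4 flower arrays and the 3 leaf arrays of a series of 11, with the stem arrays left out. Of 22746 probe sets other than controls, 16639 had a normalised signal of at least 100 in at least 3 of the 7 arrays and were tested. These probe sets read 9125 of the 13355 genes that have a probe set paired with 1 gene, and 7858 of those genes have only a locus tag as a name in the probe table. The description below is built on 45 lists of loci from stress response and from functions other than photosynthesis, of which 383 genes were tested. The lists place loci in families from general knowledge, and 230 of the 383 have only a locus tag, so no role is given to such a locus beyond its list.

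A leaf builds chloroplasts in its cells and exports sugar once mature, and the leaves here were still expanding. A flower is a mixture of sepals, petals, stamens and carpels, and holds pollen, a tissue that dries before it is shed and then grows a tube by softening and rebuilding a wall rich in pectin. Late embryogenesis abundant (LEA) proteins are hydrophilic proteins known from drying seeds and pollen, and resistance genes of the NBS-LRR type encode intracellular receptors that detect pathogens.

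All plants were wild-type Columbia-0 and carried no transgene or treatment. Expanding leaves were cut 15 days after germination and flowers, open ones together with closed buds, 29 days after germination, so tissue and plant age cannot be told apart. Plants grew 4 to a pot with days at 25 °C and nights at 20 °C, and with a photoperiod of 16 h where the labels give one. Leaf replicate 1 and flower replicates 1 and 2 came from a growth chamber, and leaf replicates 2 and 3 and flower replicates 3 and 4 from a greenhouse. Leaf RNA was extracted with Trizol alone and flower RNA with Trizol and a silica column, which also cannot be told apart from tissue. The labels do not say whether replicates were separate plants, and p-values here reflect only how far these samples spread, which may be technical. In whole organs, fewer cells of a type and less RNA per cell cannot be told apart.

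The median deposited signal was 195 to 201 in the leaf arrays and 244 to 251 in the flower arrays, and 64.9% to 65.8% of leaf probe sets reached 100, against 69.4% to 71.7% in flower. Pearson's r was computed over probe sets, which do not count as independent samples, and was 0.934 to 0.967 within a tissue and 0.742 to 0.765 between tissues. The 3'/5' signal ratio of the ubiquitin control, a measure of RNA integrity, was 1.24 to 1.62 in leaf and 1.97 to 2.21 in flower, without overlap. The ratios of the actin and GAPDH controls were 1.83 to 3.29 and 2.25 to 2.61 in leaf. In flower replicates 1 to 4 the actin ratio was 3.7, 3.22, 8.23 and 4.49, and the GAPDH ratio 2.15, 2.93, 5.45 and 3.86. Both were thus higher in flower replicates 3 and 4 than in 1 and 2. The part of these differences in any result was not tested. The GapC factor that the labels state for flower replicates 2 and 3 fitted each other's array, so which of the 2 came from which site is uncertain. GapC, the glycolytic gene the labels scale to, had deposited intensities of 10659, 14103 and 13195 in leaf and 9475, 9273, 7933 and 6316 in flower, without overlap. After quantile normalisation its groups overlapped, with a log2 difference of -0.18 ± 0.18 (SE, adjusted p = 0.47).

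With limma, 1564 probe sets were called higher in flower, which is 9.4% of those tested, and 1588 lower, which is 9.54%. A call needed a Benjamini-Hochberg adjusted p under 0.05 and a difference of at least 1 on the log2(value + 32) scale. Over genes with 1 probe set each, 9.16% were called higher and 8.84% lower, which is the background for the list counts below. Flower and leaf arrays did not overlap in 96.0% of the probe sets called higher and 97.5% of those called lower, against 43.2% of all tested. The 2 directions were alike in number but not in size. Of the probe sets called higher, 248 differed by at least 3 log2 units and 60 by at least 5, against 83 and 5 of those called lower. Among those called higher, 535 were under a signal of 100 in every leaf array, and for such genes the fold depends on the 32 added before taking logs. Scaling each array to GapC moved the median over all probe sets from -0.02 to 0.71 and made 89.4% of calls higher, against 49.6% here, so every level stated below is relative to quantile-normalised arrays. Of 16031 probe sets tested with GapC scaling, 4972 were called higher and 588 lower, which is the background for counts with that scaling.

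The probe table reached few of the marker genes for the labelled tissues. All 4 tested leaf photosynthesis markers were lower in flower (RCA, PRK, SBPASE and LHCB4.1). The call of LHCB4.1, an antenna protein of photosystem II, was lost without leaf replicate 1, where the difference was -0.97. Of the 28 floral organ identity genes 7 had a probe set of their own and only 2 were tested, since the others failed the signal minimum. Without the filter 1 of the 7 was called higher and 0 lower, with a median of 0.25. Over all probe sets without the filter, 7.26% were called higher. SPT (SPATULA), a regulator of carpel development, was higher in flower by 1.13 ± 0.17 (SE, adjusted p = 0.00058), and INO (INNER NO OUTER), an ovule gene, had a difference of 0.92, under the minimum. OLEO3, an oil body protein of seeds, GUT2 and IRX15-L, xylan genes of xylem, and EXPA7, an expansin of root hairs, were not called. AT5G12050, whose place in the root list is uncertain, was called lower in flower.

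**Figure D1:**
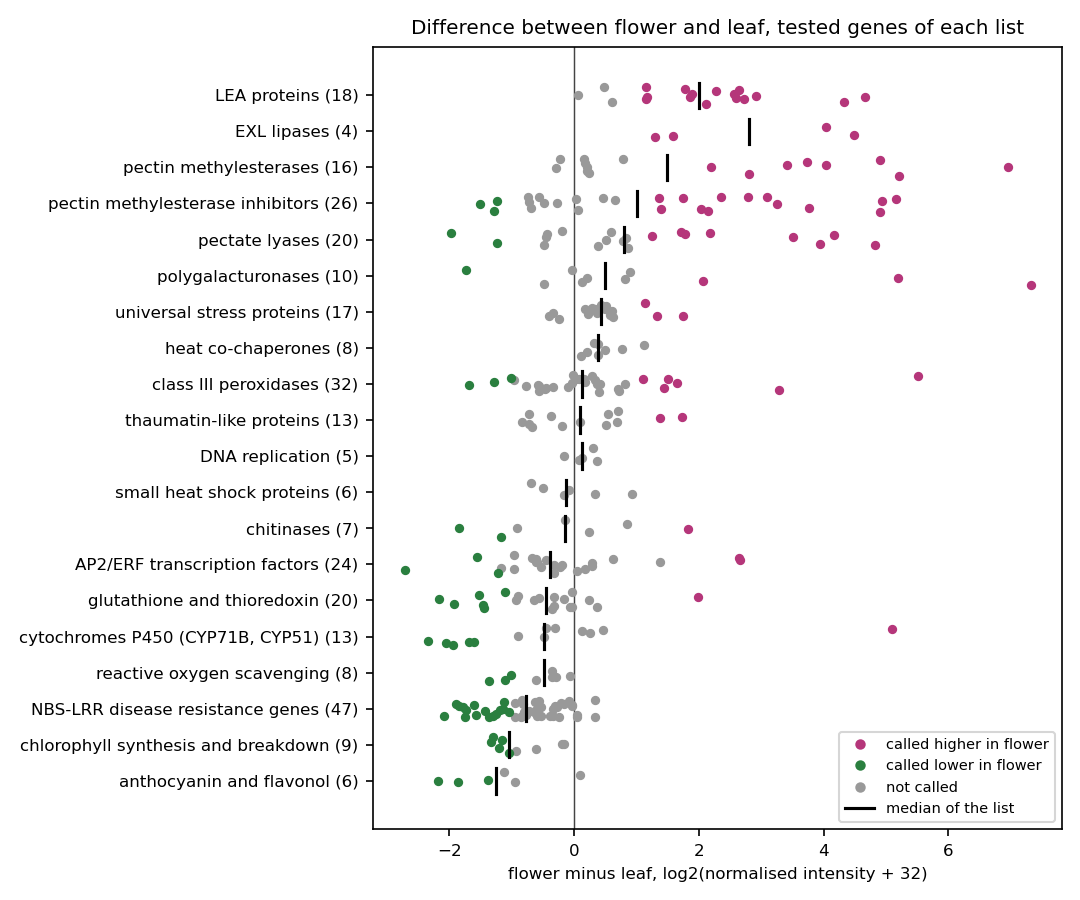
Difference between flower and leaf (horizontal axis, log2 scale of normalised intensity + 32) for each tested gene of 20 lists, with the number tested in brackets and a vertical bar at the list median. The LEA list lies wholly to the right of 0 with a median of 2.0, and the NBS-LRR list lies mostly to the left with a median of -0.77.

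LEA protein genes were higher in flower. Of 53 listed loci, 37 had a probe set of their own and 18 were tested, and 15 of the 18 were called higher and 0 lower, with a median difference of 2.0. Of the 18, 5 were under 100 in every leaf array and could pass only through flower, so their direction was fixed by the filter. These were AT2G03850, AT1G52680, AT2G21490, AT2G03740 and AT2G33690. The called members AT3G02480, AT5G27980 and AT4G13230 reached 100 in only 1 leaf array each. They too needed flower arrays to pass, so the filter was not neutral on their direction. Without the filter, where 7.26% of all probe sets were called higher and 7.54% lower, 15 of 37 were called higher and 1 lower, with a median of 0.47. The 1 lower gene was AT5G60530, at 82.0 to 195 in leaf and 17.5 to 74.8 in flower (log2 difference -1.16, adjusted p = 0.046).

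AT2G03850 had normalised intensities of 9.48, 8.01 and 5.03 in leaf and 1225, 935, 812 and 927 in flower. AT1G52680 gave 7.91, 8.3 and 40.2 in leaf and 1088, 1246, 737 and 800 in flower. Both were near the bottom of the scale in every leaf array and well above 100 in every flower array. Their log2 differences were 4.66 ± 0.19 and 4.33 ± 0.27 (SE), with adjusted p of 1.1e-07 and 1.9e-06. The filter had fixed the direction of both, as it had for AT2G21490 and AT2G03740 below. AT3G02480 (2.91 ± 0.38), COR15A (2.73 ± 0.25), the dehydrin gene AT2G21490 (LEA, 2.64 ± 0.35), AT5G27980 (2.59 ± 0.42) and AT2G03740 (2.57 ± 0.28) followed, and their groups did not overlap either.

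Other called members rose by 1.15 to 2.27, among them COR47 (2.27 ± 0.19), AT4G13230 (2.11 ± 0.33) and COR15B (1.89 ± 0.34, SE). AT1G54410, which the gene table names as an 11 kDa dehydrin (HIRD11), was at 6831, 3919 and 4482 in leaf and at 11513, 10750, 10085 and 11622 in flower. All flower arrays exceeded all leaf arrays, at a fold of 2.22. Its difference was 0.97 without leaf replicate 2, just under the minimum. AT2G23120 rose 2.24-fold, from a mean of 1560 ± 100 (SD, n = 3) to 3560 ± 483 (SD, n = 4), and AT2G46140 (LEA27) rose 2.22-fold. DI21, a drought-induced gene, rose 3.43-fold. The 3 tested members that were not called were AT2G44060 (LEA26), LTI30 and AT4G38410, with differences of 0.06, 0.47 and 0.60.

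AT2G33690 was an exception in its spread. Flower replicates 1 to 3 were at 199, 194 and 149, and replicate 4 was at 19.1, inside the leaf range of 2.65 to 19.7. Its call (adjusted p = 0.023) was lost without leaf replicate 2 or 3, with an adjusted p of up to 0.068. Leaving out any 1 array kept 13 of the 15 LEA calls, all but those of AT2G33690 and AT1G54410. Within sites the list's median was 2.2 in the growth chamber and 1.83 in the greenhouse, and all 15 called members had the same sign at both.

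**Figure D2:**
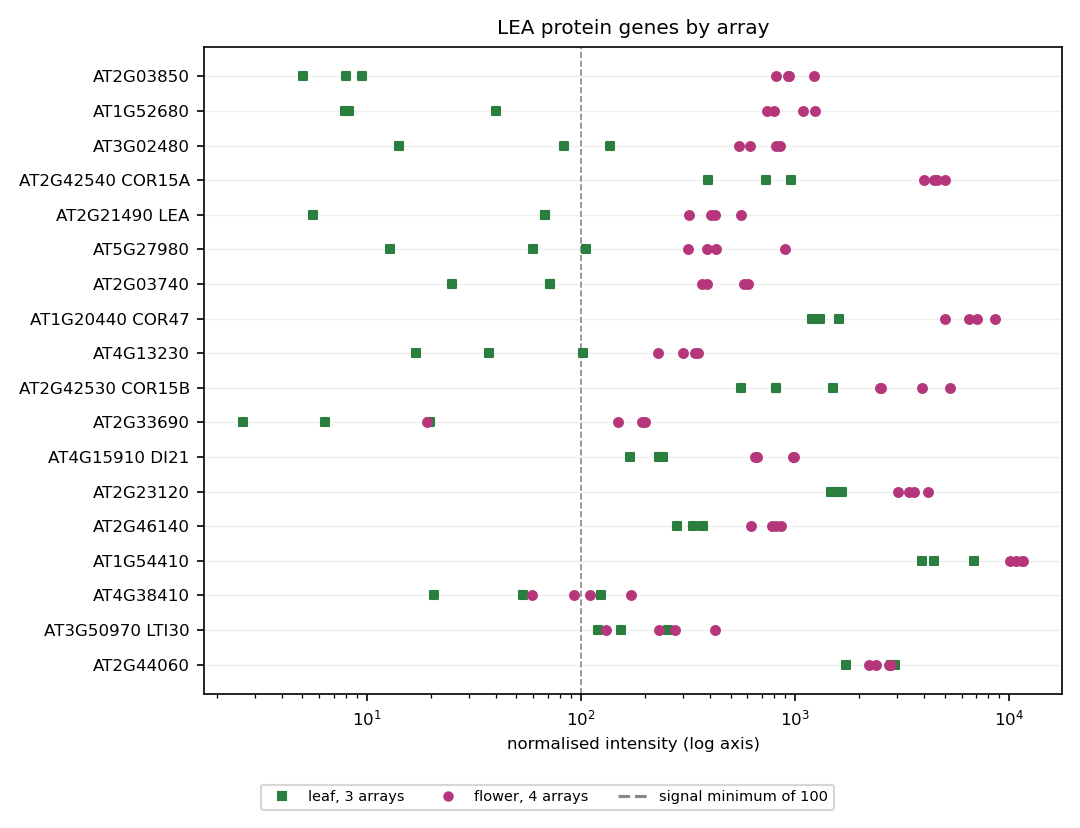
Normalised intensity on a log axis of the 18 tested LEA genes, with squares for the 3 leaf arrays and circles for the 4 flower arrays. AT2G03850 and AT1G52680 are under 100 in every leaf array and at 737 or more in flower, and flower replicate 4 of AT2G33690 lies among the leaf arrays.

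Genes named for cold and drought also included COR27 and DI19. COR27, a clock-linked cold gene, was at 282, 18.2 and 80.3 in leaf and at 900, 1326, 461 and 1256 in flower, without overlap (2.97 ± 0.55, SE, adjusted p = 0.0021). DI19, a drought-induced zinc-finger protein, rose 3.23-fold from an already high leaf mean of 3094 ± 1228 (SD, n = 3). STZ (ZAT10), a zinc-finger repressor induced by salt and cold, went the other way. It was at 2325, 1559 and 3865 in leaf and at 455, 640, 1080 and 183 in flower, so every flower array was lower, by 4.62-fold (adjusted p = 0.0055). HVA22C, the 1 tested gene of the list of dehydration and abscisic acid response, had a difference of 0.72 (adjusted p = 0.017), under the minimum.

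Heat response genes gave 1 call between the tissues over 17 tested, and several had a wide spread within flower. Of the 6 tested small heat shock proteins and the 8 tested heat factors and co-chaperones, 0 were called with limma. At an unadjusted p under 0.05 there was 1 in each list, AT5G47600 and Hop2. With GapC scaling 2 and 3 were called higher, where 4972 of all 16031 tested probe sets were. Of 3 tested large chaperones, Hsp70-2 was called higher, by 1.02 (adjusted p = 0.017), with overlapping groups. That call was lost when either of leaf replicates 1 and 3 or of flower replicates 1 and 2 was left out, where the difference fell to as little as 0.88 or the adjusted p rose to as much as 0.057.

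AT5G48570, which the gene table names ROF2 (FKBP65), a co-chaperone, was at 231, 1471 and 1007 in leaf and at 5246, 3764, 468 and 221 in flower. The growth chamber flowers stood above all leaf arrays and the greenhouse flowers below both greenhouse leaves, and the tissues overlapped. Flower minus leaf was therefore 4.09 in the growth chamber and -1.81 in the greenhouse. The difference between these values, 5.9, passed the test of interaction between tissue and site (adjusted p = 0.019), which was added after the values were seen and rests on 1 growth chamber leaf array. With the sites of flower replicates 2 and 3 exchanged it was 2.98 and did not pass (adjusted p = 0.65). Over all probe sets, 15 passed this test, which is 0.0901% of those tested, and 1725 had an unadjusted p under 0.05. With the sites of those 2 arrays exchanged 43 passed. The greenhouse flower arrays also had the higher 3'/5' ratios of actin and GAPDH, and the part of RNA integrity in these values was not tested.

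Several other heat genes, chosen after their values were seen, were also higher in flower in the growth chamber and lower in the greenhouse. Those named here did not pass that test. Fes1A, a nucleotide exchange factor of HSP70, differed by 2.6 in the growth chamber and -1.47 in the greenhouse (interaction adjusted p = 0.063). AT2G20560 differed by 3.33 and -2.24 (interaction adjusted p = 0.16), and the small heat shock protein AT2G29500 by 2.11 and -2.51 (0.17). Hop3, a co-chaperone that links HSP70 and HSP90, was at 1180 and 367 in the growth chamber flowers and at 83.5 to 140 in all other arrays. Other tested heat genes did not follow this pattern. Hsp70-2 (1.65 and 0.49), Hop2 (0.59 and 0.22), HSA32 (0.72 and 0.23) and AT5G47600 (0.6 and 1.15) were higher in flower at both sites. BOB1 (0.77 and -0.02), Hop1 (0.2 and -0.03) and AT4G16660 (0.28 and -0.17) differed little in the greenhouse. AT4G21870 differed by -0.43 and 0.59, and its highest array was flower replicate 4, at 5102, against 237 to 1039 elsewhere.

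**Figure D3:**
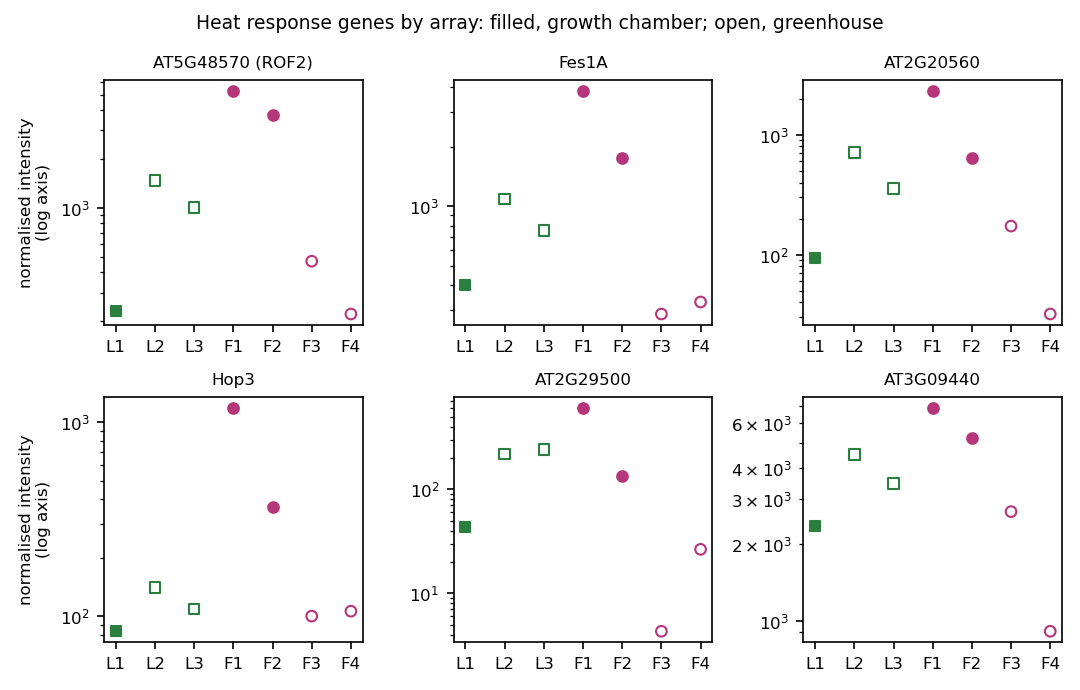
Normalised intensity (log axis, a separate scale per panel) of 6 heat response genes in leaf arrays L1 to L3 and flower arrays F1 to F4, filled for the growth chamber and open for the greenhouse. For AT5G48570 the growth chamber flowers are at 5246 and 3764 and the greenhouse flowers at 468 and 221.

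NBS-LRR resistance genes were lower in flower. Of 155 listed loci, 99 had a probe set and 47 were tested, of which 16 were called lower and 0 higher, or 34.0% against the background of 8.84%. The median was -0.77, and 43 of the 47 differences were negative. Of the 47, 3 were under 100 in every flower array (AT5G58120, AT5G36930 and AT3G44400), all of them called, and the filter fixed their direction. Without the filter, 20 of 99 were called lower and 0 higher, with a median of -0.44. The 4 loci called only without it were AT4G14610, AT1G17600, AT1G53350 and AT1G63750. With GapC scaling, which raises all genes, 5 were called lower and 1 higher, and the list's median relative to that of all probe sets was -0.739. Many of these loci are close copies of each other, so probe sets may read more than 1 of them. Whether each listed locus, AT1G66090, AT1G72900 and AT1G72920 among them, encodes a full NBS-LRR protein was not checked, and some may lack the LRR part.

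AT1G66090 was at 532, 392 and 666 in leaf and at 138, 104, 86.1 and 144 in flower. AT1G72900 was at 563, 431 and 623 in leaf and at 114, 204, 138 and 89.9 in flower. AT5G36930 was at 259, 210 and 231 in leaf and at 12 to 60.1 in flower. In all 3 the highest flower array lay below the lowest leaf array, and the falls were 1.90 ± 0.23, 1.79 ± 0.24 and 1.85 ± 0.32 log2 units (SE), with adjusted p of 0.00014, 0.00031 and 0.0012. AT5G58120 fell by 2.08 log2 units to 4.18 to 34.7 in flower, and AT4G19530 by 1.74. AT1G72920 was called (-1.75, adjusted p = 0.019), but its groups overlapped and the call was lost without leaf replicate 1 or 3, with an adjusted p of up to 0.067. Leaving out any 1 array kept 13 of the 16 calls in each fit that tested the gene, all but AT1G72920, CSA1 and AT5G40060. CSA1 was not called without leaf replicate 2 or flower replicate 1 or 2 (-0.97 at the smallest, adjusted p up to 0.065), and AT5G40060 not without leaf replicate 3 or flower replicate 1 (-0.98 at the smallest). The median within sites was -0.79 in the growth chamber and -0.83 in the greenhouse.

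**Figure D4:**
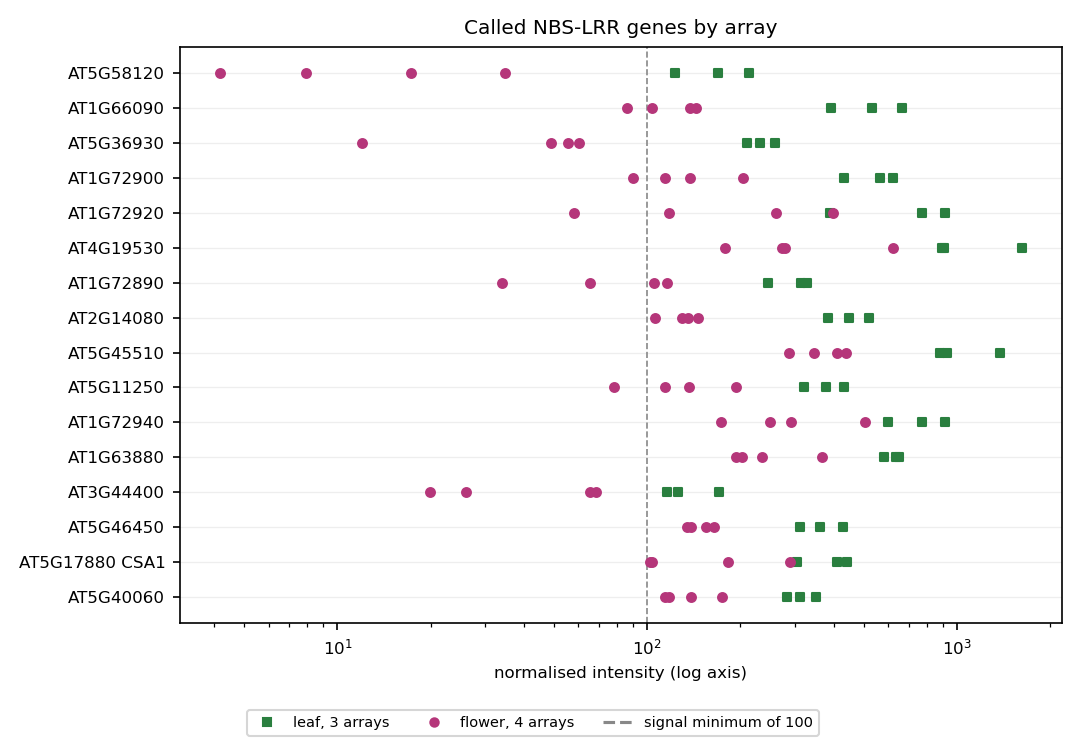
Normalised intensity on a log axis of the 16 NBS-LRR genes called lower in flower, with squares for leaf arrays, circles for flower arrays and a dashed line at 100. For AT1G66090 the 4 flower arrays lie at 86.1 to 144 and the 3 leaf arrays at 392 to 666, and only for AT1G72920 do the groups overlap.

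Tested genes of the salicylic acid and WRKY lists gave 0 calls with limma. Of these 6 genes BIK1 and RING1 had an adjusted p under 0.05 (0.0092 and 0.015), below the minimum fold, and the unadjusted p was under 0.05 for WRKY53 too. BIK1, a kinase of immune receptor complexes, SAG101, a partner of EDS1 in resistance signalling, and RING1, a ubiquitin ligase, had differences of -0.78, -0.72 and -0.91 without a call. WRKY53, WRKY22 and WRKY6 had -0.88, -0.54 and 0.19, also uncalled. Of 7 tested chitinases, enzymes that cut the chitin of fungal walls, 2 were lower and 1 higher. CHI fell 3.61-fold, from 677, 529 and 464 in leaf to 118, 167, 220 and 58.6 in flower, and the groups did not overlap. AT4G01700 was called lower, but not without flower replicate 2 (-0.95). AT1G56680 was higher, at 160 to 461 in flower and 21.6 to 60.1 in leaf. AT1G56680 passed the filter only through flower and AT4G01700 only through leaf, which fixed their direction. Outside these lists, the defensin genes PDF1.2 and PDF1.2b and the thionin gene THI2.2 were lower (-4.84, -4.68 and -4.22) and the thionin gene THI2.1 was higher (6.09). PDF1.2, PDF1.2b and THI2.2 passed the filter only through leaf, which fixed their direction.

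Among 13 tested thaumatin-like proteins, a family that includes pathogenesis-related protein 5, AT2G28790 and ATLP-1 were higher and 0 lower. AT2G28790 was at 2647, 3178 and 2886 in leaf and at 10645, 10588, 9622 and 8004 in flower, a fold of 3.31 (adjusted p = 9.7e-06) with no overlap. Without the filter AT1G75050 was also called higher. Of 17 tested universal stress proteins 3 were higher, namely AT1G69080 (1.75 ± 0.25), AT1G44760 (1.32 ± 0.17) and AT3G53990 (1.13 ± 0.30, SE). AT1G69080 passed the filter only through flower. AT3G53990, whose groups overlapped, lost its call when leaf replicate 2, leaf replicate 3 or flower replicate 2 was left out (0.78 at the lowest, adjusted p up to 0.061), and without the filter AT1G09740 was called lower. The median of the universal stress list was 0.43, against -0.02 over all probe sets.

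Of 24 tested AP2/ERF transcription factors, 3 were lower in flower and 2 higher, with a median of -0.39. These shares, 12.5% and 8.33%, were near the background. Both higher genes, SHN3 and AT1G01250, passed the filter only through flower and AT4G16750 only through leaf, so their direction was fixed. ORA47, a jasmonate-induced regulator of jasmonate synthesis, was at 2040, 718 and 4008 in leaf and at 527, 236, 191 and 151 in flower. Leaf arrays spread more than 5-fold among themselves but all lay above every flower array, and the fall was 2.72 ± 0.53 log2 units (SE, adjusted p = 0.0027). AT4G16750 and AT4G39780 fell by 1.56 and 1.22. SHN3, a regulator of cuticle formation, was at 13.4 to 72.5 in leaf and 283 to 434 in flower, a rise of 2.64 ± 0.32, and AT1G01250 rose by 2.66 ± 0.52. JMT, which makes methyl jasmonate, was the 1 tested gene of the jasmonate list and had a difference of 0.64 (adjusted p = 0.21).

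Class III peroxidases are secreted enzymes that cross-link or loosen walls, and most were not called. Of 73 listed loci, 55 had a probe set and 32 were tested, of which 6 were higher, 3 lower and 23 uncalled, with a median of 0.12. The share called lower, 9.38%, was near the background. Of the 6 higher, AT5G47000, AT5G19880 and AT5G58400 passed the filter only through flower, which fixed their direction. AT5G47000 was at 13.4, 8.3 and 2.62 in leaf and at 1821, 2632, 1433 and 1493 in flower (5.52 ± 0.23, SE, adjusted p = 1.1e-07). AT1G44970 was at 157, 147 and 136 in leaf and at 1535, 1467, 1850 and 1981 in flower (3.28 ± 0.16, adjusted p = 2.7e-07). No flower array of either gene came near a leaf array. AT5G19880, AT2G22420, AT4G16270 and AT5G58400 were higher by 1.65, 1.5, 1.44 and 1.1, and AT5G58400 lost its call without leaf replicate 1 or 3 (0.76 at the lowest, adjusted p up to 0.08). PRXR1 was at 14619, 9862 and 10657 in leaf and at 5823, 5358, 3802 and 4163 in flower, a fall without overlap by 2.44-fold (adjusted p = 0.00049). AT5G58390, whose neighbour by locus number is the raised AT5G58400, fell by 1.69. AT3G28200 fell by 1.01, just past the minimum, and was not called without leaf replicate 3 or flower replicate 1 (-0.93 at the smallest).

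Several redox genes of the chloroplast were lower in flower. Thioredoxins pass electrons from photosystem I to enzymes that light switches on. THX (thioredoxin X) was at 3793, 4631 and 4400 in leaf and at 1050, 1103, 748 and 845 in flower, and TRXF2 (thioredoxin F2) at 2163, 1855 and 1951 against 588, 502, 604 and 341. Both fell without overlap, by 4.48-fold and 3.81-fold (adjusted p of 6.8e-06 and 4.6e-05). The thioredoxin reductase NTRC and thioredoxin Y2 (ty2) fell by 2.72-fold and 2.75-fold. Over the 20 tested genes named for glutathione or thioredoxin, 6 were lower and 1 higher. With GapC scaling 3 were lower and 2 higher, against 588 and 4972 of all 16031 tested probe sets. The mitochondrial thioredoxins TO1 and TO2 had differences of -0.04 and -0.33 and the glutaredoxin GRXC2 0.24, all uncalled, and ATHM2 (thioredoxin m2) had -0.57 (adjusted p = 0.0041), under the minimum.

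All 8 tested genes of reactive oxygen scavenging had negative differences, and 3 were called. TAPX, the ascorbate peroxidase of the thylakoid, was at 2949, 2573 and 2762 in leaf and at 1303, 1135, 867 and 939 in flower, a fold of 2.58 (adjusted p = 0.00012). The organellar glutathione reductase (GR, AT3G54660) fell 2.16-fold, but only by 0.99 log2 units without flower replicate 4. AT3G11630 fell 2.02-fold, from 17890, 17890 and 18875 to 8424, 10712, 8398 and 8672, and by less than the minimum (-0.96) without leaf replicate 1 or 3. SAPX, the stromal ascorbate peroxidase, and GR1, the cytosolic glutathione reductase, had differences of -0.29 and -0.07, and AT3G52960 of -0.61. None of the 8 was called with GapC scaling, where the list's median relative to that of all probe sets was -0.725.

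Glutathione S-transferases split by member. GSTU20 fell from 13728, 12242 and 13372 in leaf to 2806, 3683, 7864 and 5147 in flower (-1.53 ± 0.29, SE, adjusted p = 0.0022). GSTU26 rose from 143, 61.0 and 139 to 573, 551, 532 and 460 (1.99 ± 0.24, adjusted p = 0.00012). The groups of both genes were apart. The other 4 tested members had differences of -0.93 to -0.36 without a call, and without the filter GSTU22 was called lower.

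Pectin-modifying genes held the 2 largest rises of any list. Pectin methylesterases (PME) remove methyl groups from the pectin backbone, PME inhibitors (PMEI) block them, and polygalacturonases and pectate lyases then cut the backbone. Of 16 tested PME loci 8 were higher and 0 lower, of 26 PMEI loci 13 were higher and 3 lower, of 20 pectate lyases 8 were higher and 2 lower, and of 10 polygalacturonases 3 were higher and 1 lower. The medians were 1.49, 1.01, 0.80 and 0.50, and 1.05, 0.66, 0.76 and 0.16 without the filter. All 8 called PME loci were under 100 in every leaf array, as were 3 tested PMEI, 4 pectate lyase and 4 polygalacturonase loci, so these passed only through flower. Among others, AT1G10770 and AT1G23350 (PMEI) and AT3G01270 (pectate lyase) reached 100 in only 1 leaf array and also needed flower arrays to pass. Without the filter 9 of 18 PME, 14 of 31 PMEI, 8 of 23 pectate lyase and 3 of 26 polygalacturonase loci were called higher, the added ones being AT4G33230 (PME) and AT4G25250 (PMEI).

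The polygalacturonase AT3G07820 was at 5.66, 8.63 and 3.37 in leaf and at 6212, 9666, 5223 and 4161 in flower. AT2G47050, whose place in the PME list is less certain than that of the others, was at 31.5, 8.3 and 25.9 in leaf and at 6732, 8821, 6268 and 4987 in flower. The leaf arrays of both lay at the bottom of the scale, far below every flower array. The differences were 7.32 ± 0.25 and 6.96 ± 0.22 (SE), with adjusted p of 3.6e-08 and 2.2e-08. The PME loci AT5G07430 (5.21 ± 0.26), AT3G17060 (4.91 ± 0.27) and AT5G07420 (4.03 ± 0.19) and the polygalacturonase AT5G48140 (5.19 ± 0.23) came next.

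Several inhibitors were also far higher in flower. AT1G10770 was at 82.7, 70.7 and 112 in leaf and at 4479, 6109, 3562 and 3260 in flower. AT5G50030 was at 104, 94.0 and 164 in leaf and at 4426, 5930, 4540 and 3328 in flower. In both, as in AT3G07820 and AT2G47050, flower replicate 2 was the highest of the 4 and replicate 4 the lowest. AT1G10770, AT4G02250, AT5G50030 and AT1G23350 were higher by 5.16, 4.93, 4.91 and 3.77. The 3 PMEI loci called lower were AT3G47380, AT3G62820 and AT4G25260, which fell by 1.51, 1.28 and 1.24, and none of these was called with GapC scaling. AT5G62350, at 7404 to 14950 over the 7 arrays, had a difference of 0.46 and was not called.

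Pectate lyase AT3G01270 was at 87.6, 67.0 and 165 in leaf and at 3819, 4850, 3884 and 2629 in flower, without overlap (4.82 ± 0.26, SE, adjusted p = 7.2e-07). AT5G15110, AT2G02720 and AT1G14420 (AT59) rose by 4.17, 3.94 and 3.51. AT5G63180 and AT3G09540 fell by 1.98 and 1.24, from leaf means of 1688 ± 257 and 593 ± 46.1 (SD, n = 3). The polygalacturonase AT1G60590 fell by 1.73 (adjusted p = 0.015), but not without leaf replicate 2 or 3, where the adjusted p was up to 0.067. AT1G10640 rose 4.16-fold, with flower replicate 4 at 582 and the others at 1496 to 1731. Every call of a PME, PMEI or pectate lyase locus had the same sign at both growth sites and was kept without any 1 array in each fit that tested it.

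**Figure D5:**
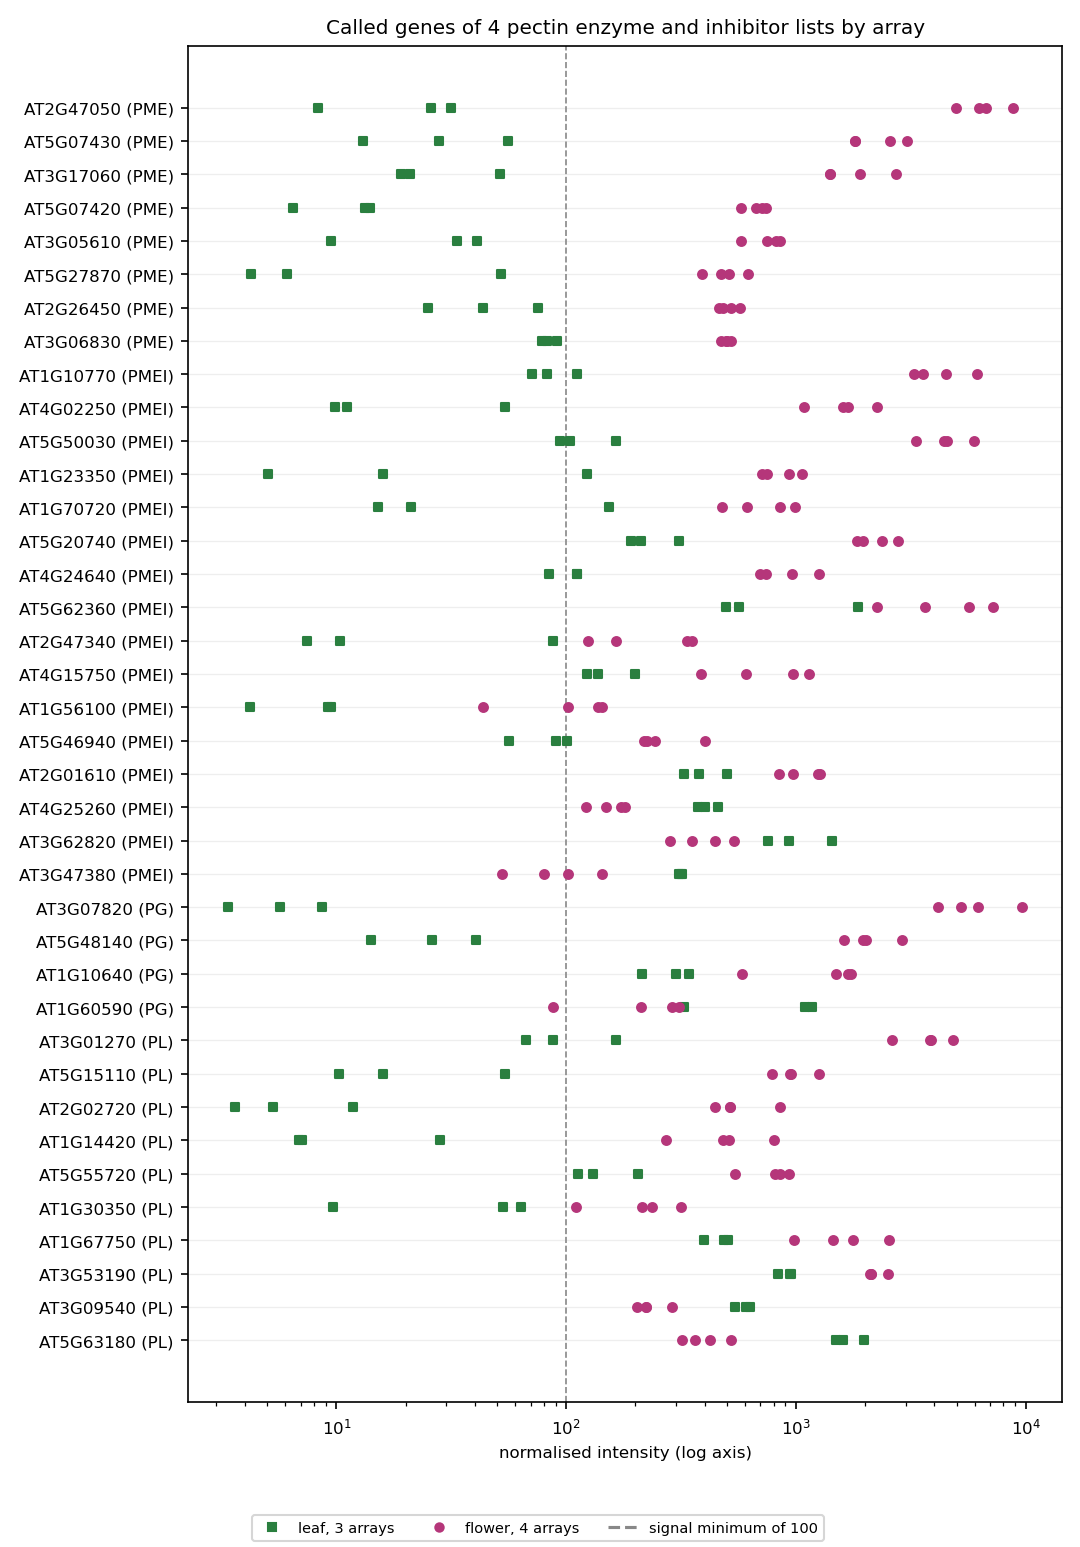
Normalised intensity on a log axis of every called pectin methylesterase (PME), inhibitor (PMEI), polygalacturonase (PG) and pectate lyase (PL) locus, with squares for leaf arrays, circles for flower arrays and a dashed line at 100. For AT3G07820 the leaf arrays are at 3.37 to 8.63 and the flower arrays at 4161 to 9666, while AT5G63180 and 5 other loci lie higher in leaf.

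Extracellular lipases of the EXL family, proteins of the pollen coat, were higher in all 4 tested loci, of which AT1G75890 and AT1G75920 passed the filter only through flower, which fixed their direction. AT1G75920 was at 6.74, 2.01 and 59.7 in leaf and at 1285, 917, 1156 and 972 in flower, and AT1G75880 at 134, 87.4 and 39.0 against 2168, 1861, 1473 and 1769. Flower arrays stood far above leaf arrays in both (4.48 ± 0.32 and 4.03 ± 0.27, SE). AT1G75880 reached 100 in only 1 leaf array, so it also needed flower arrays to pass. AT1G75890 and AT1G75900 rose by 1.58 and 1.29. AT1G75890 was not called when 100 was added before taking logs (0.98), and AT1G75900 was the only one above 100 in every leaf array, at 993 to 1181.

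Proteases and histones gave 3 tested genes each. The proteases SBT4.13 and CP1 passed the filter only through flower, which fixed their direction. The subtilases SBT4.13 and SBT1.3 rose by 2.93 and 1.52, and the cysteine protease CP1 by 2.16, with adjusted p of 4.3e-05, 2.4e-05 and 0.00054. SBT1.3 was at 1874 ± 307 (SD, n = 3) in leaf and 5390 ± 306 (SD, n = 4) in flower. The histone gene HTB2 (H2B) rose 3.32-fold, from 871, 511 and 499 to 1942, 1881, 2113 and 2469, with every flower array above every leaf array. HON4, a linker histone gene, rose by 1.07 and was not called without leaf replicate 2 or 3 (0.96 at the lowest). The centromeric histone gene HTR12 was not called (0.26). Genes of DNA replication (5 tested, -0.16 to 0.37) and meiosis (3 tested, -0.25 to 0.32) gave 0 calls with limma. At an unadjusted p under 0.05 there were 1 (PRL) and 0. With GapC scaling 2 and 1 were called higher, where 4972 of all 16031 tested probe sets were.

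Several genes of chlorophyll synthesis were lower in flower. Of 9 tested genes of chlorophyll synthesis and breakdown 5 were lower and 0 higher, with a median of -1.04, and 2 of the 5 calls were kept without any 1 array. HEME1 and HEME2, in the part of the tetrapyrrole path shared by chlorophyll and haem, fell 2.47-fold and 2.30-fold. HEME1 went from 2672, 2088 and 2368 to 1183, 970, 813 and 834. PORB, the light-dependent protochlorophyllide reductase, was at 19343, 7707 and 8138 in leaf and at 5412, 4199, 3225 and 4400 in flower. Leaf replicate 1 stood well above the others, and without it the fall was 0.90 and not called. CHLI2, a magnesium chelatase subunit, and CHLM, the next methyltransferase, were likewise called (-1.15 and -1.04) but not without leaf replicate 1, and CHLM also not without flower replicate 3 or 4 (-0.95 and -0.90 at the smallest). HEMA2 and HEMB1, earlier in the path, had differences of -0.16 and -0.20. With GapC scaling 1 of the 9 was called lower, and the list's median relative to that of all probe sets was -1.34.

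LYC, the lycopene beta-cyclase of carotenoid synthesis, fell 2.40-fold (adjusted p = 0.00013), a call lost with GapC scaling. AT5G44630, in the same list, was at 5.98, 9.85 and 9.64 in leaf and at 1745, 2113, 1552 and 1643 in flower (5.46 ± 0.16, SE, adjusted p = 1.6e-08). These 2 genes of the isoprenoid list thus lay at opposite ends, with no overlap between tissues in either. AT5G44630 passed the filter only through flower, which fixed its direction. Of 6 tested genes of anthocyanin and flavonol synthesis 3 were lower and 0 higher, and AT4G14090 and AT5MAT passed the filter only through leaf, which fixed their direction. AT4G14090 fell by 2.18 and the acyltransferase AT5MAT by 1.86, to 6.12 to 23.4 and 4.42 to 35.1 in flower. UF3GT fell by 1.39 but was not called without leaf replicate 2 or 3 (adjusted p up to 0.062), and DFR had -0.95.

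Tested genes of sulphur, starch, sugar and glucosinolate metabolism gave 4 calls. SIR, the plastid sulfite reductase, fell from 2837, 3290 and 3287 to 1282, 1313, 1335 and 1480, without overlap (2.29-fold, adjusted p = 5.8e-05). The call of SIR was lost with GapC scaling. APL4, a subunit of ADP-glucose pyrophosphorylase in starch synthesis, rose by 1.09, a call lost without leaf replicate 3 or flower replicate 1 (0.96 at the lowest). The other 5 tested starch genes had differences of -0.67 to 0.62 without a call. The 4 tested sugar transporters and invertases had -0.72 to -0.10, also without a call. Of 5 tested glucosinolate genes 2 were lower and 0 higher. BCAT4, which starts the elongation of methionine, fell 15.0-fold and UGT74B1, a glucosyltransferase of the same pathway, 3.29-fold, while the glucosinolate transporters GTR1 and GTR2 had uncalled differences of 0.20 and 0.70. The median over the 5 tested glucosinolate genes was -1.87 in the growth chamber and 0.19 in the greenhouse. Both called genes were lower at each site, BCAT4 with -4.19 and -3.58 and UGT74B1 with -1.87 and -1.47. GTR1 (0.16 and 0.26) and GTR2 (1.29 and 0.19) were positive at each. Only the uncalled AOP3 changed sign (-2.32 and 0.68), with leaf arrays at 422, 14.6 and 33.5.

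Among regulators, IAA29, an auxin and shade response repressor, fell by 2.28 ± 0.51 (adjusted p = 0.0057), from 991, 239 and 357 to 15.9, 61.7, 84.2 and 144. The gibberellin receptors GID1A, GID1B and GID1C had differences of -0.29, -0.71 and -0.73, EIN3 of ethylene signalling 0.10, and DME and AGO7 of the DNA methylation and small RNA list -0.18 and 0.16, none called.

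Of 13 tested genes named as cytochromes P450, 5 were lower and 1, CYP71B31, higher, with a median of -0.49. CYP71B31 passed the filter only through flower, and CYP71B29, CYP71B5, CYP71B23 and CYP71B24 only through leaf, so the direction of 5 of the 6 calls was fixed. The other, CYP71B35, reached 100 in only 1 flower array, so it too needed leaf arrays to pass. CYP71B29 was at 262, 180 and 316 in leaf and at 23.6, 23.4, 22.6 and 21.3 in flower, and CYP71B23 at 401, 178 and 247 against 23.8, 33.1, 46.6 and 88.2. Flower arrays of both were under 100 and below all leaf arrays (-2.35 ± 0.29 and -1.94 ± 0.35, SE). CYP71B5, CYP71B35 and CYP71B24 fell by 2.05, 1.68 and 1.61. CYP71B28, at 563 to 620 in leaf, had -0.31, and CYP71B22 had 0.26 with flower replicate 4 at 825 against 170 to 266 in the others. With GapC scaling 1 of the 13 was called lower and 3 higher, against 588 and 4972 of all 16031 tested probe sets.

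Many of the large differences belonged to loci without a symbol. AT1G68875 was at 2.71, 4.15 and 1.73 in leaf and at 8627, 11513, 7968 and 9024 in flower, the largest rise among loci with only a tag (8.05 ± 0.16, SE, adjusted p = 1.8e-09). AT1G66850 was at 86.6, 95.0 and 130 in leaf and at 26248, 27763, 19343 and 20547 in flower (7.43 ± 0.17). In both genes every flower array lay far above every leaf array. Among the 10 largest rises were 3 loci of a single region by locus number, AT3G28830 (6.65 ± 0.14), AT3G28980 (6.51 ± 0.28) and AT3G28750 (6.12 ± 0.29). AT3G01240, AT5G38760 and AT5G61720 rose by 6.24, 6.19 and 5.93. With a symbol, the 5 largest rises were GILT, ATA27, THI2.1, CYP71B31 and PLIM2a. Except for AT1G66850 and THI2.1, all genes named in this paragraph were under 100 in every leaf array. They passed the filter only through flower, which fixed their direction. AT1G66850 reached 100 in only 1 leaf array, so it also needed flower arrays to pass.

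AT1G66100 was at 5906, 2998 and 4285 in leaf and at 60.7, 63.8, 39.9 and 21.4 in flower, the largest fall among such loci (-5.80 ± 0.27, SE, adjusted p = 2.4e-07). AT2G25510 was at 35321, 37496 and 37049 in leaf and at 1687, 1972, 4077 and 1898 in flower (-4.0 ± 0.26). In both genes all flower arrays lay far below all leaf arrays. The differences of AT5G59540, AT4G34950, AT1G76960, AT3G05730 and AT2G41090 were -4.75, -4.62, -4.48, -4.35 and -4.3, and those of AT3G16530, AT1G22690 and AT5G03350 were -4.17, -4.0 and -3.94. All 20 of these loci kept their call without any 1 array in each fit that tested the locus. Loci that passed only through leaf were not tested when a leaf array was left out. With a symbol, the 5 largest falls were PDF1.2, PDF1.2b, MSRB6, THI2.2 and BCAT4. AT1G66100, AT5G59540, AT1G76960, AT3G05730, AT3G16530, PDF1.2, PDF1.2b, MSRB6 and THI2.2 were under 100 in every flower array. They passed the filter only through leaf, which fixed their direction.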

How the data were processed

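RNA of 3 leaf and 4 flower samples was hybridised to Affymetrix ATH1 arrays, 1 array a sample. The deposited values are linear signal intensities that the authors made with Microarray Suite 5.0 at a target of 500, per the labels' protocols, and the GapC factors in the labels had not been applied to them. Deposited intensities of the 7 arrays were quantile normalised here, and limma 3.58.1 was run in R 4.3.3 on log2(value + 32), with an intensity trend in eBayes. Probe sets were tested where 3 or more arrays reached 100. Genes that reached 100 in fewer than 3 arrays of 1 tissue passed only with arrays of the other. The filter is not neutral on the direction of such genes, and not each of them is marked above. A call needed a Benjamini-Hochberg adjusted p under 0.05 over all tested probe sets and a log2 difference of at least 1. Detection calls were not used, so values under 100 may be background, and folds there are understated by the added 32. The number of arrays limits the precision.

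Genes were named from probe sets paired with 1 locus, taking the probe set of highest mean where several read a gene. Of 85 genes with several tested probe sets, 32 had probe sets of opposite direction. Named genes were the 10 loci with only a tag and the 5 genes with a symbol that changed most each way, up to 4 called members a direction in each list (6 for stress lists), all members of lists with 1 or 2 tested, and 3 uncalled stress genes. Heat, LEA and other members named beyond this were chosen after their values were seen. The members and lists were chosen with earlier results of these data known, and 5 locus lists and 6 word lists were chosen or trimmed later. Cysteine-rich receptor-like kinases had 0 tested members, and 1 list of regulators is not reported here. Growth site was tested as a covariate and within each site, and the interaction of tissue and site was added after the data were seen. Replicate numbers were not used to pair the samples. Deviations of same-numbered arrays had correlations of -0.174, -0.0956 and 0.0231, and those of differently numbered arrays -0.0736 to 0.15. With so few arrays these values cannot settle whether the numbers pair samples. The procedure was tested on simulated data.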

Additional observations from a re-analysis of the deposited data

Results flagged for a closer look

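Among the 174 named genes, 14 had 1 flower array that stood far from the other 3, and chance alone gives about 1 in 20 such groups. Replicate 4 was the lowest array for GILT (AT4G12960) at 3095, GR (AT3G54660) at 596, AT1G10640 at 582, SBPASE (AT3G55800) at 6399 and AT2G33690 at 19.1. Replicate 2 was the lowest for AT5G59540 at 15.3 and AT1G75890 at 86.2, and the highest for AT3G16530 at 64.3, AT3G28980 at 7832 and AT3G11630 at 10712. Replicate 3 was the lowest for AT1G22690 at 76.2 and INO (AT1G23420) at 236. Replicate 1 was the lowest for HON4 (AT3G18035) at 957 and the highest for BOB1 (AT5G53400) at 1292.

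For AT5G48570 the difference between flower and leaf was larger in the growth chamber than in the greenhouse by 5.9 log2 units (limma interaction, adjusted p = 0.019). The growth chamber leaf is 1 array, and the value was 2.98 with an adjusted p of 0.65 when the sites of flower replicates 2 and 3 were exchanged.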

How the results depend on the processing

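The count of probe sets called higher in flower moved from 1564 to 4972 with GapC scaling, 3032 with no minimum fold, 738 with growth chamber arrays only and 1030 with greenhouse arrays only, where fewer samples were fitted. The count called lower moved from 1588 to 588, 3096 and 948 under the first 3 of these. Leaving out 1 array gave 1478 to 1601 higher and 1265 to 1622 lower. With the replicate number as a block, 1522 were higher and 1535 lower, and 4 of the named genes lost their call, though the numbers are not known to pair the samples. Of 142 called named genes, 97 kept their call in every setting that tested them, and GapC scaling ended 23 calls and added 11. No called gene reversed. Uncalled heat genes did, AT3G09440 to 1.31 in the growth chamber alone, and AT5G48570, Fes1A and AT2G20560 to -1.83, -1.48 and -2.24 in the greenhouse alone, and the cause was not tested. Signals under 100 limit what can be said of the low group of many genes.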

Other observations

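Genes next to each other by locus number shared a call in a minority of cases. Of 312 genes called higher with a directly adjacent tested gene, 51 (16.3%) had a neighbour that was also called higher, while 9.7% of all 3218 such genes were called higher. Of 274 called lower, 35 (12.8%) had a neighbour called lower, while 8.51% of all such genes were. A neighbour called the opposite way was found for 7.69% of the genes called higher and 10.2% of those called lower. These shares are descriptions without a test, and whether neighbours share probes was not tested. The longest run held 5 genes called higher, from AT1G23560 to AT1G23600. Runs of 4 were AT1G75870 to AT1G75900 and AT5G25550 to AT5G25580, called higher, and AT1G51080 to AT1G51110, called lower.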
